A study of Mus musculus with 43 samples.

Results

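The genes that build and sulfate glycosaminoglycans were represented by 52 of the 2078 genes of a pooled CRISPR library of metabolic genes, and by 260 of its 10390 gene-targeting sgRNAs, 5 for each gene. The members were taken by gene name: the sulfotransferase and polymerase families (Chst, Chsy, Chpf, Csgalnact, Ext, Extl, Hs2st, Hs3st, Hs6st, Ndst), the xylosyltransferases, the B3gat and Has families, and B3galt6, B4galt7, Dse, Ust, Glce, Ugdh and Uxs1. No measured value entered this rule, although it was set with earlier results of these data known. By role, 2 supply UDP-sugars, 5 build the linker that joins the chain to its protein, 5 belong to the family that makes the heparan backbone, 16 modify heparan, 6 build the chondroitin backbone, 9 modify chondroitin or dermatan, 4 sulfate keratan sulfate or GlcNAc, 2 are glucuronyltransferases of the HNK-1 epitope and 3 make hyaluronan.

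Glycosaminoglycans are long sugar chains, most of them attached to core proteins at the cell surface and in the matrix, where they bind growth factors, chemokines and adhesion molecules. Heparan, chondroitin and dermatan sulfate all begin on the same short linker, which starts with xylose and ends with glucuronic acid, and the sugar added next decides which chain is made. UDP-glucuronic acid from Ugdh feeds the linker, these chains and hyaluronan, whereas keratan sulfate contains no glucuronic acid and grows on other glycans. Sulfotransferases then place sulfate at fixed positions along each chain, with PAPS as the donor.

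In this screen, OT-I CD8+ T cells, whose receptor recognises ovalbumin, carried a Cas9 knock-in, were transduced with the lentiviral library and were selected by CD90.1. They were transferred into Rosa26-Cas9 recipients bearing orthotopic KPC_OVA tumours, a mouse pancreatic cancer line made to express ovalbumin. Cells kept back when the others were transferred (T0, 3 libraries) were compared with CD90.1+ cells sorted 7 days later from mice given rat IgG or anti-PD-1: primary tumour, lung and spleen (3 libraries each per treatment), liver (2 under IgG, 1 under anti-PD-1), peritoneal metastases (2 and 3), and draining and nondraining lymph nodes (3 each per treatment), 41 libraries of genomic DNA in all. T0 cells were cultured and had received neither antibody, every group carried the same library, and the methods state a high multiplicity of infection, at which a cell can hold sgRNAs to several genes. Replicate numbers are the submitters' biological replicates, and how many mice each library holds is not given per library. Because only the integrated sgRNA was sequenced, neither the sorted cell type nor the loss of a targeted protein can be checked from these values. One library titled as peritoneal metastases under anti-PD-1, replicate 2, has spleen as its tissue label. It was kept with the metastases, and the calls over organs or between treatments that changed without it (Chst3, Chst11, Hs6st3 and Has3) are given with those genes.

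The level of a gene in a library was log2(value + 1), averaged over the 5 sgRNAs of the gene, minus the mean of the 250 nontargeting sgRNAs of that library, so a level of 0 means as frequent as the nontargeting sgRNAs. A difference in level is the log2 change in frequency of T cells carrying sgRNAs to that gene, relative to nontargeting sgRNAs and averaged over the 5 sgRNAs. It says nothing of the gene's expression. The libraries were not equally precise. The SD of the nontargeting sgRNAs within a library was 1.08 to 1.11 at T0, 1.43 to 3.11 in tumour, liver, metastases and spleen, 2.62 to 3.68 in lung, and in the lymph nodes it was 2.04 to 4.35. The share of sgRNAs at the lowest value that libraries share rose alongside, from at most 0.0188% at T0 to 10.6% or more in lung (highest 42.6%), with 48.6% to 91.6% in the lymph nodes. The main comparison therefore set, for each of the 3 replicate numbers, the mean over all its libraries outside the lymph nodes (7, 9 and 10 libraries) against T0, and is called the change over organs.

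Few members of the pathway changed between transfer and the organs. Ugdh, Hs6st1, Hs6st2 and Chst3 were lower over organs than at T0, 4 of the 52 members or 7.69%, beside 501 of all 2078 genes or 24.1% (limma, adjusted p at most 0.05). No member was higher, beside 60 of all genes or 2.89%. At an unadjusted p of 0.05, 8 members were lower and 3 higher, beside 619 and 130 of all 2078 genes. The median change was −0.08 over the members and −0.15 over all genes, and the members ran from −0.93 for Ugdh to 0.54 for Chst11, whereas the lowest 10% of all genes lay below −3.25. Outside the lymph nodes 5.75% of the members' values sat at the shared lowest value, against 7.11% for nontargeting sgRNAs and 11.4% over the whole library.

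**Figure D1:**
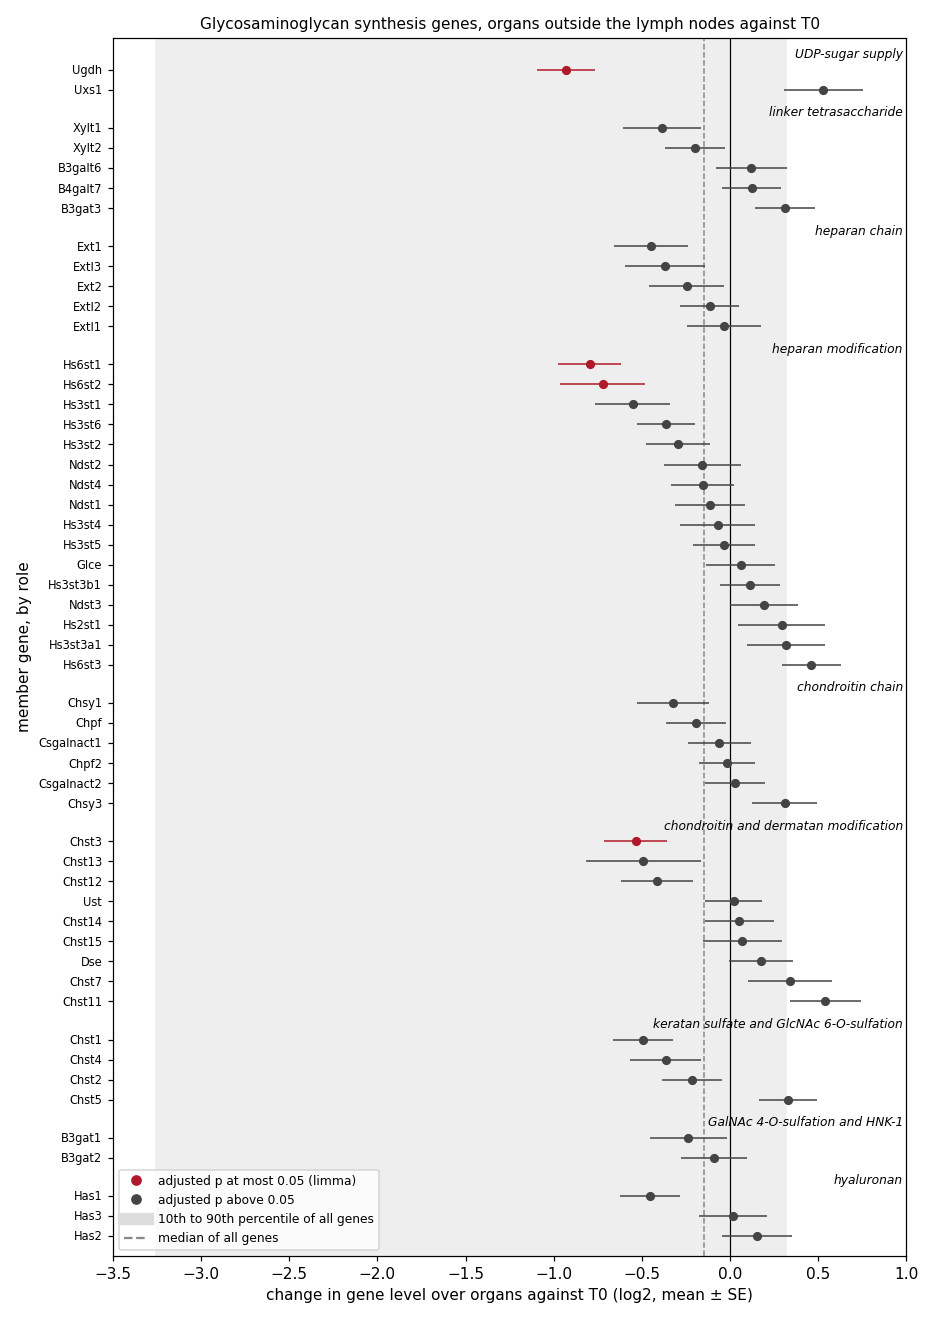
Change in level (log2) of each of the 52 members over organs outside the lymph nodes against T0, with its SE from 3 replicate numbers, grouped by role; red marks an adjusted p of at most 0.05, the grey band spans the 10th to 90th percentile of all 2078 genes and the dashed line is their median. Ugdh, Hs6st1, Hs6st2 and Chst3 are the 4 red points, and every member lies far to the right of the lower end of the band at −3.25.

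UDP-sugar supply held the lowest change of all members and one of the highest. Ugdh oxidises UDP-glucose to UDP-glucuronic acid, and Uxs1 converts that product to UDP-xylose, the sugar that starts the linker. Ugdh stood at 0.08, 0.27 and 0.03 in the T0 libraries and at −0.84, −0.84 and −0.74 over the organs of replicates 1, 2 and 3. The T0 and organ values did not overlap. Its change was −0.93 (SE 0.16, adjusted p = 0.000986), with a 95% interval of −1.29 to −0.57. Relative to nontargeting sgRNAs, the geometric mean over its sgRNAs was thus 52.5% of that at T0 (40.8% to 67.5%). Ugdh had the lowest change and the lowest adjusted p of the 52 members.

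Library by library, Ugdh was below all 3 T0 libraries in 24 of 26 libraries outside the lymph nodes. Primary tumour libraries were at −0.81, −0.14 and −1.18 under IgG and −1.08, −0.74 and −0.99 under anti-PD-1. Lung libraries were at −1.71, −1.36 and −0.12 under IgG and −0.13, −0.57 and −1.76 under anti-PD-1. Every one of these tumour and lung libraries lay below T0, but the replicates of each lung group were far apart. Liver was at −0.49 and −0.99 under IgG, and its single anti-PD-1 library at 0.64 was the only one above T0. Peritoneal metastases were at −0.53 and −1.72 under IgG and −0.52, −0.31 and −1.16 under anti-PD-1. Spleen was at −0.92, −1.03 and −0.34 under IgG and at −0.73, −2.35 and 0.26 under anti-PD-1, the last of them inside the T0 range.

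By group, the change of Ugdh was negative in 9 of the 10 groups outside the lymph nodes and ran from −1.25 (SE 0.66) in IgG peritoneal metastases to −0.79 (SE 0.59) in anti-PD-1 metastases, with 0.51 (SE 0.84) in anti-PD-1 liver. No group taken alone passed the test, with adjusted p from 0.196 in IgG lung upward. The call over organs was lost when every library entered as its own value (−0.84, adjusted p = 0.345). It was also lost when levels were set against the mean of all sgRNAs, which raised the median of all genes to 0.52 (−0.26, adjusted p = 0.196).

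The 5 sgRNAs to Ugdh fell into separate ranges. Their changes were −1.83, −1.49, −1.25, −0.15 and 0.07, and the first 3 lay below −1.01, the 10th percentile of the 250 nontargeting sgRNAs. The remaining pair was close to the nontargeting median of 0.08. The gene's change without its lowest sgRNA was −0.71. Over all 260 member sgRNAs, 28 (10.8%) lay below the nontargeting 10th percentile and 13 (5%) above the 90th. Counts of such sgRNAs for Ugdh and the genes below stand beside these shares.

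Uxs1 had the second highest change of the members and did not pass the test. It stood at 0.38, 0.32 and 0.29 at T0 and at 0.37, 1.25 and 0.95 over organs, so replicate 1 did not move and the others were higher. The change was 0.53 (SE 0.22, adjusted p = 0.113). Uxs1 was above all T0 libraries in 20 of 26 libraries and below them in 5, and its levels ran from −2.79 in IgG lung replicate 1 to 2.66 in IgG lung replicate 2. Without the lung libraries the change was 0.61 (adjusted p = 0.0117), and without that lowest library alone it was 0.70 (adjusted p = 0.00903). Its sgRNAs changed by −0.69, 0.23, 0.75, 1.17 and 1.19, the last pair above the nontargeting 90th percentile of 0.82. The difference between Ugdh and Uxs1 was not tested.

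**Figure D2:**
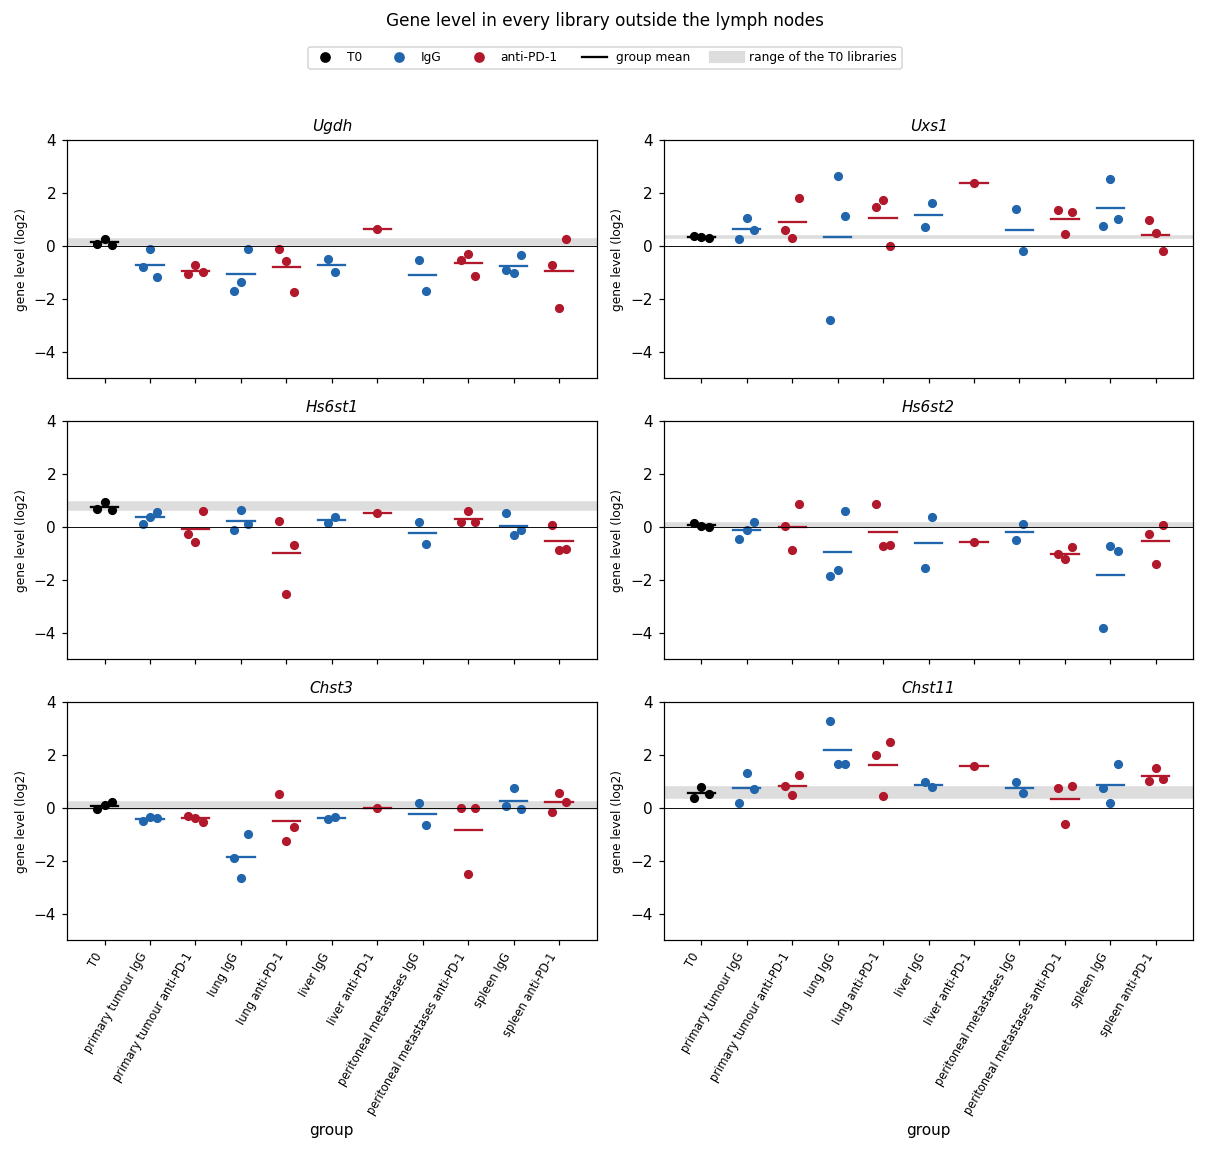
Level (log2, 0 is the mean of the nontargeting sgRNAs) of Ugdh, Uxs1, Hs6st1, Hs6st2, Chst3 and Chst11 in each library outside the lymph nodes, by group; points are libraries, bars are group means and the grey band is the range of the 3 T0 libraries. Ugdh lies below the band in 24 of 26 libraries and Hs6st1 in all 26, while the low Hs6st2 mean in IgG spleen rests on 1 library at −3.83.

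None of the 5 linker enzymes passed the test, and their directions were mixed. Xylt1 and Xylt2, which attach the first xylose to serine of the core protein, had changes of −0.39 (SE 0.22) and −0.20 (SE 0.17). The galactosyltransferases B4galt7 and B3galt6, which add the next sugars, were at 0.12 (SE 0.17) and 0.12 (SE 0.20), and B3gat3, which closes the linker with glucuronic acid, at 0.31 (SE 0.17). Their adjusted p ran from 0.222 to 0.717. For B3gat3, T0 was at 0.88, 0.81 and 0.58 and the organs at 1.10, 1.15 and 0.95, and the values did not overlap. For Xylt1, T0 was at −0.38, −0.18 and −0.05 and the organs at −0.17, −0.98 and −0.62, which overlap. B4galt7, B3galt6 and B3gat3 all turned negative when levels were centred on the nontargeting median or taken as deposited, settings that moved the median of all genes to −0.59 and −1.09.

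All 5 members of the heparan backbone family had changes below 0, and none passed the test. Ext1 and Ext2, which together form the heparan polymerase, were at −0.45 (SE 0.21, adjusted p = 0.151) and −0.24 (SE 0.21, adjusted p = 0.46). Extl3, which adds the first GlcNAc and so starts a heparan chain, was at −0.37 (SE 0.23, adjusted p = 0.286). Extl2 was at −0.11 and Extl1 at −0.03. Ext1 stood at −0.04, 0.34 and 0.12 at T0 and at 0.05, −0.62 and −0.35 over organs. Replicate 1 did not fall, unlike the others. The lowest Ext1 group was IgG liver (−1.90, SE 0.86, adjusted p = 0.208). Ext1 passed the test without the lung libraries (−0.57, adjusted p = 0.0257).

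Among the 16 heparan modifiers, the 6-O-sulfotransferases Hs6st1 and Hs6st2 were lower, and their paralog Hs6st3 was not. These enzymes place sulfate on carbon 6 of glucosamine. Hs6st1 stood at 0.67, 0.93 and 0.65 at T0 and at 0.10, −0.26 and 0.01 over organs. All 26 libraries outside the lymph nodes were below all 3 T0 libraries, which held for no other member. The change was −0.79 (SE 0.18, adjusted p = 0.00544), or 57.6% of the T0 value relative to nontargeting sgRNAs (43.8% to 75.8%). Its sgRNAs changed by −1.43, −1.10, −0.92, −0.65 and 0.12, so 4 of 5 were lower and 2 passed below the nontargeting 10th percentile. The call held without any single library. It was lost with the median over the 5 sgRNAs (−0.78, adjusted p = 0.0535), with every library as its own value (−0.76, adjusted p = 0.392), with lymph nodes in the mean (−0.54, adjusted p = 0.0556) and against the mean of all sgRNAs (−0.13, adjusted p = 0.542). Here and below, the setting with the median over sgRNAs also took the nontargeting median as reference.

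Hs6st2 stood at 0.14, 0.04 and −0.01 at T0 and at −0.94, −0.97 and −0.08 over organs. The ranges did not overlap, but replicate 3 was only just below T0. The change was −0.72 (SE 0.24, adjusted p = 0.0466). It was above all T0 libraries in 5 of 26 libraries and below them in 18. The lowest level, −3.83 in IgG spleen replicate 1, set the group's change of −1.89 (SE 0.71, adjusted p = 0.0834), and without that library the change over organs was −0.56 (adjusted p = 0.0995). In all, leaving out 1 library ended the call in 11 of 29 cases. All 5 sgRNAs to Hs6st2 had negative changes, from −1.49 to −0.18, with 1 below the nontargeting 10th percentile. The call was lost with the median over sgRNAs (−0.83, adjusted p = 0.188) and with the lowest sgRNAs of the library left out (−0.58, adjusted p = 0.155).

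Hs6st3 was on the other side of 0. It stood at 0.90, 0.78 and 0.66 at T0 and at 1.28, 1.10 and 1.35 over organs, with no overlap. The change was 0.46 (SE 0.17, adjusted p = 0.0681), and all 5 sgRNAs were above 0, from 0.01 to 0.76. None of these sgRNAs lay above the nontargeting 90th percentile of 0.82. Hs6st3 was above T0 in 19 of 26 libraries and below in 5. It passed the test without the library titled metastases and labelled spleen (0.52, adjusted p = 0.0368). It was at 0.04 with the median over sgRNAs and the nontargeting median as reference, and at −0.48 with values as deposited. Whether the 3 paralogs differ was not tested.

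The other 13 heparan modifiers did not pass the test. Of the 3-O-sulfotransferases, which add a rare late sulfate, Hs3st1 was at −0.55 (SE 0.21, adjusted p = 0.0828), Hs3st6 at −0.36, Hs3st2 at −0.29, Hs3st4 at −0.07, Hs3st5 at −0.03, Hs3st3b1 at 0.11 and Hs3st3a1 at 0.32. Hs3st1 had T0 levels of −0.39, −0.08 and −0.13 and organ levels of −0.64, −1.16 and −0.45, which do not overlap. It was also the member with the single lowest library, −4.62 in IgG lung replicate 1, and without that library its change over organs was −0.33 (adjusted p = 0.436). The N-deacetylase/N-sulfotransferases, whose step comes first on the new chain, lay near 0, with Ndst1 at −0.12 (SE 0.20), Ndst2 at −0.16, Ndst3 at 0.19 and Ndst4 at −0.16. Glce, the epimerase that makes iduronic acid, was at 0.06 and the 2-O-sulfotransferase Hs2st1 at 0.29 (SE 0.25, adjusted p = 0.441).

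**Figure D3:**
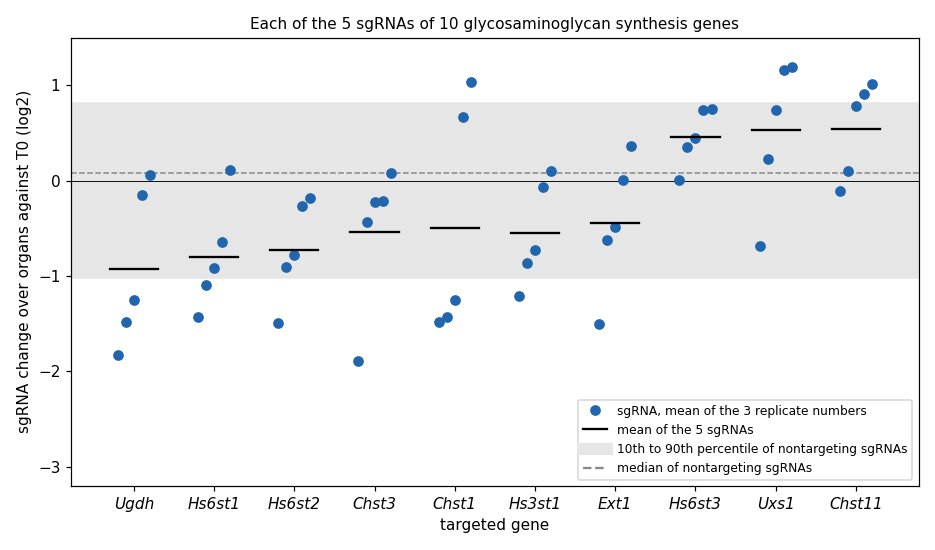
Change over organs (log2) of each of the 5 sgRNAs to 10 members, averaged over the 3 replicate numbers, with the mean of the 5 as a bar; the grey band spans the 10th to 90th percentile (−1.01 to 0.82) of the nontargeting sgRNAs and the dashed line is their median. Ugdh has 3 sgRNAs below the band, whereas the low mean of Chst3 rests on 1 sgRNA at −1.89.

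The 6 chondroitin backbone enzymes had no call. Csgalnact1 and Csgalnact2, which commit the linker to chondroitin by adding the first GalNAc, were at −0.06 and 0.03. The polymerase subunits Chsy1, Chpf, Chpf2 and Chsy3 were at −0.32 (SE 0.20, adjusted p = 0.296), −0.19, −0.02 and 0.31. Chsy3 was above all T0 libraries in 18 of 26 libraries, and Chsy1 in 9, with 12 below. The libraries of each fell on both sides of T0.

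Chondroitin sulfotransferases spread to both ends of the member list. Chst3, a chondroitin 6-O-sulfotransferase, was lower, with T0 at −0.06, 0.12 and 0.21 and organs at −0.32, −0.68 and −0.34. The ranges did not overlap, and the change was −0.54 (SE 0.18, adjusted p = 0.0468). One sgRNA at −1.89 carried much of this: the other 4 lay between −0.44 and 0.08, and the gene's change without the lowest was −0.20. Leaving out 1 library ended the call in 14 of 29 fits, among them that without the library titled metastases and labelled spleen (−0.46, adjusted p = 0.0653). The call was also lost without the lung libraries (−0.32, adjusted p = 0.174), with the lowest sgRNAs left out (−0.25, adjusted p = 0.352), with the replicate block (adjusted p = 0.124), with a pseudocount of 10 (adjusted p = 0.0581) and with library weights (adjusted p = 0.0565). Chst7, the other 6-O-sulfotransferase, was at 0.34 (SE 0.24, adjusted p = 0.343), with T0 at −0.12, 0.01 and −0.20 and organs at 0.49, −0.33 and 0.54, so replicate 2 moved the other way.

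Of the chondroitin 4-O-sulfotransferases, Chst11 was the highest of all members and Chst12 and Chst13 were negative. Chst11 stood at 0.37, 0.77 and 0.53 at T0 and at 1.26, 0.76 and 1.26 over organs. The change was 0.54 (SE 0.20, adjusted p = 0.0727), with 17 of 26 libraries above T0 and 3 below. It passed the test without the library titled metastases and labelled spleen (0.60, adjusted p = 0.0345). It turned to −0.09 with the median over sgRNAs and the nontargeting median as reference, and to −0.40 with values as deposited. Chst12 was at −0.42 and Chst13 at −0.49, neither past the threshold. Chst14 and the epimerase Dse, which act on dermatan, were at 0.05 and 0.18, the uronyl 2-O-sulfotransferase Ust at 0.02 and Chst15, which adds sulfate to GalNAc that already carries one, at 0.07.

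The remaining families had no call over organs. The GlcNAc and galactose 6-O-sulfotransferases Chst1, Chst4, Chst2 and Chst5 were at −0.49 (SE 0.17, adjusted p = 0.0546), −0.36, −0.22 and 0.33. Chst1 had T0 at 0.16, 0.22 and 0.31 and organs at −0.09, −0.43 and −0.27, without overlap, and 3 of its 5 sgRNAs were below the nontargeting 10th percentile while 1 was above the 90th. The HNK-1 glucuronyltransferases B3gat1 and B3gat2 were at −0.24 and −0.09. The hyaluronan synthases, which need no linker and no sulfate, were at −0.45 for Has1 (SE 0.17, adjusted p = 0.0731), 0.15 for Has2 and 0.02 for Has3. Has1 had T0 at −0.48, −0.48 and −0.37 and organs at −0.96, −1.02 and −0.71, again without overlap. T0 and organ values also did not overlap for Hs3st6, Chst4, Hs3st2, Chst2 and Chst5, none of which was called. Lack of overlap was not itself a test, and its share over all genes is not given here.

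The steps around the members can be read from 44 further genes of the library, in 4 groups. They are the sulfate donor, nucleotide sugars, chain breakdown, and a last group of 3 keratan chain genes. The linker phosphorylation genes looked for, Fam20b and Pxylp1, were not in the library. Over organs 11 of the 44 were lower and 2 higher, beside 24.1% and 2.89% of all genes. For the sulfate donor, 2 of 7 were lower: Papss1, which makes PAPS (−1.14, SE 0.25, adjusted p = 0.00411), and Slc35b2, which carries it into the Golgi (−1.46, SE 0.20, adjusted p = 0.000131). Papss2 was at −0.24. For nucleotide sugars, 6 of 14 were lower, from −5.22 for Gfpt1 to −3.07 for Gnpnat1. Among them, Gfpt1, Gnpnat1, Pgm3 and Uap1 make UDP-GlcNAc and Ugp2 makes the UDP-glucose that Ugdh uses, and all of these also serve other glycans. Ugp2 changed by −4.83, against −0.93 for Ugdh. Slc35b4, a transporter of UDP-xylose and UDP-GlcNAc, was higher (0.56, SE 0.17, adjusted p = 0.0282), as was Slc35a3, a UDP-GlcNAc transporter (0.90, SE 0.17, adjusted p = 0.00142). Of the breakdown genes, Ids, a lysosomal sulfatase, was lower (−0.61, SE 0.19, adjusted p = 0.0372), and of the last 3 genes B4galt1 was lower (−3.93).

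Taken group by group, members were called in lung and nowhere else outside the lymph nodes. Over the 520 pairs of a member and a group, 4 were lower (0.769%, beside 14.1% of all 20780 pairs) and 1 was higher (0.192%, beside 0.419%). At an unadjusted p of 0.05 there were 16 lower and 3 higher. In each group with more than 1 library, 0 to 5 of the 52 members were lower at that p and 0 to 2 higher. Of all 2078 genes, 339 to 448 were lower and 3 to 115 higher in those groups. All these groups are compared with the same 3 T0 libraries. An F test of any difference between the 5 organs passed for 9 of 2078 genes (0.433%), with no member among them. At an unadjusted p of 0.05 it passed for 162 of the 2078 genes, 3 of them members (Chst14, Chst11 and Chst3). Because T0 is shared, this test also covers differences between organs in the change from T0, averaged over both treatments. The change in lung under a single treatment was not tested against that in the other organs. The lung libraries also had a nontargeting SD of 2.62 to 3.68, and its part in these calls was not tested.

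In IgG lung, Chst3 and Hs3st1 were lower, beside 16.2% of all genes, and Chst11 was higher, beside 1.68%. Chst3 was at −1.91, −2.65 and −0.99 against the T0 range of −0.06 to 0.21, a change of −1.94 (SE 0.59, adjusted p = 0.0163). All 3 libraries were below T0. Hs3st1 was at −4.62, −2.78 and −0.08, and only the first pair was below T0. Its change was −2.29 (SE 0.79, adjusted p = 0.0394), and it was −1.23 (adjusted p = 0.364) without replicate 1. Chst11 was at 3.28, 1.65 and 1.65, all above T0, a change of 1.64 (SE 0.58, adjusted p = 0.0447). It was 1.10 (adjusted p = 0.264) without replicate 1.

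In anti-PD-1 lung, Hs6st1 and B3gat1 were lower, beside 17.2% of all genes. Hs6st1 was at 0.24, −2.52 and −0.68, all below T0, a change of −1.74 (SE 0.56, adjusted p = 0.0233). It was −0.97 (adjusted p = 0.266) without replicate 2. B3gat1 was at −1.78, −1.31 and −1.75, a narrow range well below the T0 levels of 0.36, 0.12 and 0.25. Its change was −1.86 (SE 0.67, adjusted p = 0.0485), and 21 of the 29 fits that left out 1 library ended the call. None of the 5 calls in lung held when the lymph nodes joined the fit, where adjusted p ran from 0.109 to 0.256.

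In the lymph nodes, none of the 208 pairs of a member and a group passed the test in either direction, and the same was true of all 8312 pairs (0%). At an unadjusted p of 0.05, 6 pairs were higher and 0 lower. Of all 2078 genes, 41 were higher and 171 lower at that p in IgG draining nodes. The counts were 56 and 178 in anti-PD-1 draining nodes, 49 and 97 in IgG nondraining and 43 and 83 in anti-PD-1 nondraining nodes. The member pairs named next were picked by that p. The 6 were Uxs1 in IgG draining nodes (2.33), Extl3 and Chpf in anti-PD-1 draining nodes (3.31 and 2.80), B3gat1 in IgG nondraining nodes (2.85) and Chst2 and Chst12 in anti-PD-1 nondraining nodes (2.35 and 2.78), each above all T0 libraries in 3 of 3 libraries. Ugdh was at −0.14, −1.65 and −1.83 in IgG and −1.39, −1.70 and −0.24 in anti-PD-1 draining nodes, all below T0. In nondraining nodes it was at 0.62, 0.92 and 2.40 under IgG and 2.08, −0.96 and 3.57 under anti-PD-1, of which 5 of 6 were above T0. The difference between the node types was not tested.

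**Figure D4:**
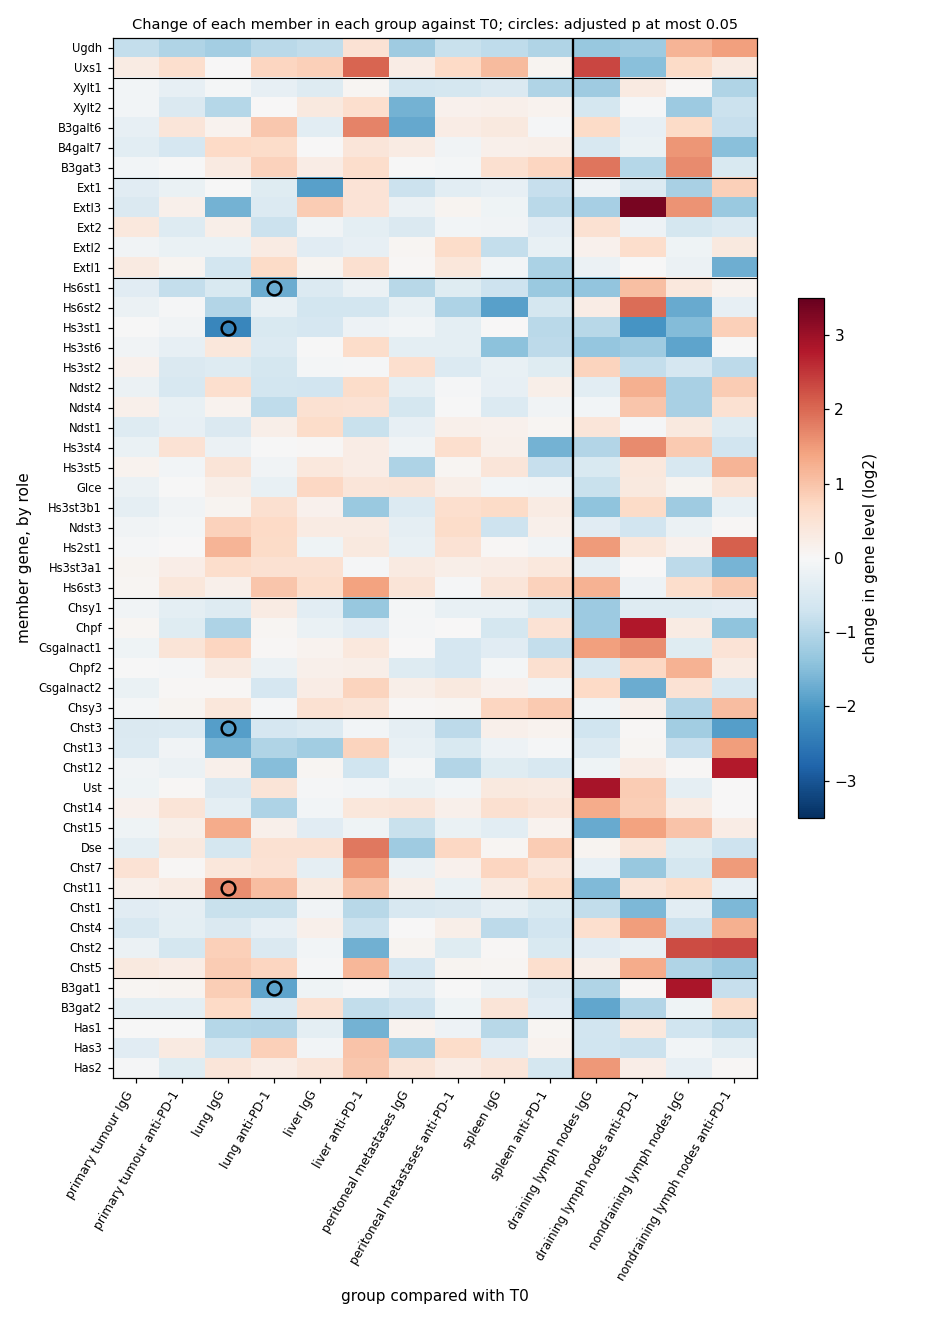
Change in level (log2, colour) of each of the 52 members, by role, in each of the 14 groups against T0; circles mark an adjusted p of at most 0.05 and the vertical line separates the lymph nodes, which were fitted apart. The 5 circles are all in lung, and the strongest colours fall in lung, in the single anti-PD-1 liver library and in the lymph nodes.

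Anti-PD-1 was compared with IgG inside each of the 5 organs outside the lymph nodes and as the mean of those 5 differences. As in the group-by-group tests above, each library entered as its own value. Libraries of different organs with the same replicate number thus counted as separate replicates, although they can come from the same transferred cells and mice. The p-values measure the spread between libraries. Over organs, Dse and Has3 were higher under anti-PD-1, 2 of 52 members beside 0.866% of all genes. No member was lower, beside 0.481% of all genes. At an unadjusted p of 0.05, 1 member was lower, beside 141 of all 2078 genes. Dse and Has3 are described here because their values were seen to pass.

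Dse, the dermatan epimerase, differed by 1.20 (SE 0.28, adjusted p = 0.0261). In tumour it was at 0.25, −0.41 and −0.66 under IgG and 0.12, 0.00 and 1.09 under anti-PD-1. In peritoneal metastases it was at −1.28 and −1.11 under IgG and 0.42, 1.55 and 0.40 under anti-PD-1, with no overlap. In lung it was at −1.05, −0.83 and 0.21 against 0.13, 0.93 and 0.75, and in liver at 0.25 and 0.91 against 1.91. The difference of the means was positive in all 5 organs, from 0.68 in tumour to 1.99 in metastases, and no single organ passed the test, with adjusted p from 0.219 upward.

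Has3, a hyaluronan synthase, differed by 1.13 (SE 0.29, adjusted p = 0.0354). In metastases it was at −0.39 and −1.17 under IgG and 1.21, 1.62 and 0.36 under anti-PD-1. In tumour it was at 0.33, −0.15 and −0.10 against 0.88, 0.41 and 0.90, and the ranges were separate in both organs. In spleen (0.48, 0.62 and −0.99 against 0.22, 0.01 and 1.44) they overlapped. The calls were fragile: leaving out 1 library ended that of Has3 in 15 of 29 fits and that of Dse in 3, and with the median over sgRNAs the adjusted p were 0.314 and 0.311. Without lung, Has3 was at 1.04 (adjusted p = 0.0566), and without the library titled metastases and labelled spleen at 1.07 (adjusted p = 0.0665).

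B3gat1 was the only member called within 1 organ. In lung it was lower under anti-PD-1 (difference −2.72, SE 0.67, adjusted p = 0.0233), beside 2.36% of all genes. The IgG libraries were at 0.24, 3.11 and −0.03 and the anti-PD-1 libraries at −1.78, −1.31 and −1.75, so the ranges were separate and IgG replicate 2 stood far above the rest. Without that library the difference was −1.72 (adjusted p = 0.102). In the other organs B3gat1 differed by −0.31 to 0.37. Whether its difference in lung departs from that in the other organs was tested, and it did not pass (−2.77, SE 0.77, adjusted p = 0.149).

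**Figure D5:**
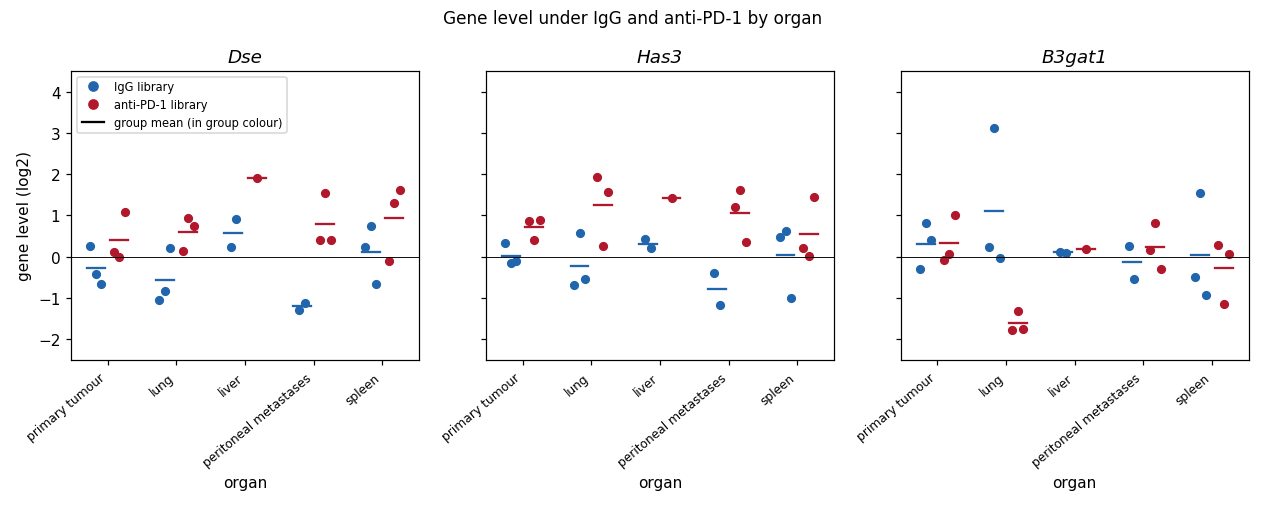
Level (log2) of Dse, Has3 and B3gat1 in each library under IgG (blue) and anti-PD-1 (red) in 5 organs; points are libraries and bars are group means. The anti-PD-1 mean is above the IgG mean in all 5 organs for Dse and Has3, whereas B3gat1 separates in lung, where 1 IgG library is at 3.11.

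For the 4 members lower over organs, no difference between treatments passed the test. The difference under anti-PD-1 was 0.34 (SE 0.30, adjusted p = 0.642) for Ugdh, −0.28 (SE 0.28, adjusted p = 0.686) for Hs6st1, 0.28 (SE 0.36, adjusted p = 0.778) for Hs6st2 and 0.22 (SE 0.30, adjusted p = 0.792) for Chst3. Of the 52 members, 3 were higher and 1 lower at an unadjusted p of 0.05 over organs, beside 188 and 141 of all 2078 genes. Beyond Dse and Has3, they were B3galt6 (1.06, SE 0.35, adjusted p = 0.129) and Chst2 (−0.89, SE 0.28, adjusted p = 0.111). By limma's interaction test, 0 of the 2078 genes (0%) had a treatment effect that differed between organs, and at an unadjusted p of 0.05 there were 103 genes, with 1 member, B3gat1.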

How the data were processed

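Genomic DNA was amplified at the integrated sgRNA and sequenced. Per the study's methods, MAGeCK-VISPR (0.5.3) gave the read counts, which the authors scaled to the 250 nontargeting sgRNAs, corrected for batch with ComBat; they left out 2 of 43 samples after quality control. The deposited values are a signal (normalized, batch-corrected read counts, not whole), so a count test was not used. sgRNA sequences are not analysed here. Read depth is unknown. The summed signal was 1788300 to 4228882 per library.

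Levels (pseudocount 1, centred on nontargeting sgRNAs) were tested with limma 3.58.1 in R 4.3.3, tested on simulated data first, with Benjamini-Hochberg adjustment over 2078 genes. SE are limma's. The 29 libraries outside the lymph nodes and the 15 of T0 and lymph nodes were fitted apart, and the change over organs by replicate number. What ComBat removed between organs cannot be told apart from differences between organs. Replicate numbers were not taken to pair libraries: correlations of same-numbered deviations were −0.148 to 0.269 between organ groups (all over 0.1 in 7 of 21 group pairs), and −0.54 to −0.0586 between T0 and the organ mean. The lowest value differed with the number: it was exactly 0 in every library of replicate 3 and above 0 in replicate 1.

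Members, lists and tests were chosen with earlier results of these data known. Genes given in full detail were those called, the 4 highest and 4 lowest over organs, and 14 set enzymes; Dse and Has3 were added. Libraries were compared for identity, and 0 of 820 pairs were identical. Values of some genes of these lists are not reported here.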

Additional observations from a re-analysis of the deposited data

How the results depend on the processing

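The values carry no read depth, and precision was limited by the libraries: lung and lymph nodes had the most sgRNAs at the lowest value. Setting levels against another reference shifted every gene alike, with a median over all genes of −0.59 with the nontargeting median, −1.09 with values as deposited and 0.52 with the mean of all sgRNAs, against −0.15. The setting with the median over the 5 sgRNAs in place of their mean also took the nontargeting median as reference. That setting moved genes by different amounts, with a median over all genes of −0.34, and the parts of each change were not separated.

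Over organs, the number of members called lower (4) was 26 with the nontargeting median, 44 as deposited, 0 with the mean of all sgRNAs, 7 with lymph nodes in the mean, 0 with every library as its own value and, chosen after seeing the data, 2 with the shared lowest values set to 0. The number called higher (0) was 34 with the mean of all sgRNAs, 2 with lymph nodes in the mean and 1 without lung libraries (added later). Over all genes the same settings gave 1135, 1849 and 364 lower for the nontargeting median, as deposited and the mean of all sgRNAs, against 501. With the replicate block, 3 members were lower, Chst3 losing its call (adjusted p = 0.124). Counts of pairs under the replicate block stayed at 4 and 1.

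For member and group pairs outside the lymph nodes, the 4 lower became 0 with all libraries in 1 fit, 18 with library weights, 1 with the lowest sgRNAs left out, 0 with the mean of all sgRNAs, 24 with the nontargeting median, 11 with only the group and T0 and 62 as deposited. The 1 higher became 0 with all libraries in 1 fit, 6 with weights, 9 with the mean of all sgRNAs, and 0 with a pseudocount of 10, the lowest sgRNAs left out, the median over sgRNAs, the nontargeting median, only the group and T0, and as deposited. In lymph nodes the counts of 0 became 1 higher with all libraries in 1 fit and 206 lower as deposited. The organ difference (0) became 1 with the nontargeting median and 7 as deposited. For anti-PD-1 against IgG over organs, the 2 higher became 0 with all libraries in 1 fit, the median over sgRNAs, the nontargeting median and as deposited, and 1 without lung or with the shared lowest values set to 0.

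Leaving out 1 library at a time gave 2 to 6 members lower and 0 to 2 higher over organs, 0 to 7 pairs lower and 0 to 3 higher, and 0 to 3 members higher and 0 to 1 lower under anti-PD-1. The 2 lower over organs came without any 1 T0 library, anti-PD-1 tumour replicate 2 or anti-PD-1 lung replicate 3, and the 2 higher without anti-PD-1 metastases replicate 2 (1 without IgG lung replicate 1). Pairs lower were 0 without T0 replicate 2 or 3, 1 without T0 replicate 1, 2 without anti-PD-1 lung replicate 2 and 7 without IgG lung replicate 1, and pairs higher 2 and 3 without anti-PD-1 lung replicate 2 and IgG lung replicate 3. Under anti-PD-1, none was higher without replicate 3 of either tumour group or of IgG metastases.

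Several members turned sign, among them Chst3, which was called lower, and Chst11 and Uxs1, the members with the highest changes. With values as deposited, changes were −0.82 for B3galt6, −0.63 for B3gat3, −0.82 for B4galt7, −0.40 for Chst11 (−0.30 in IgG lung), −0.60 for Chst7, −0.65 for Hs2st1, −0.48 for Hs6st3 and −0.41 for Uxs1. With the nontargeting median they were −0.32 for B3galt6, −0.13 for B3gat3, −0.32 for B4galt7, −0.10 for Chst7 and −0.15 for Hs2st1. With the median over sgRNAs they were −0.15 for B3galt6, −0.13 for B4galt7, −0.0851 for Chst11 and −0.20 for Hs2st1. Without lung they were −0.0411 for B3galt6 and −0.0343 for B4galt7, and with a pseudocount of 10 −0.0101 for B4galt7. With the mean of all sgRNAs they were 0.43 for B3gat1, 0.13 for Chst3, 0.35 for Chsy1, 0.22 for Ext1, 0.43 for Ext2, 0.30 for Extl3, 0.12 for Hs3st1, 0.55 for Ndst1, 0.28 for Xylt1 and 0.47 for Xylt2. Of the 4 members lower over organs, Ugdh and Hs6st1 held in every fit that left out 1 library. The cause of these changes, beyond the shift of the reference, was not tested.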
